A study of Homo sapiens with 12 samples.

Results

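The ligands and receptors of the tumor necrosis factor (TNF) superfamily described here were 10 genes fixed by name: the ligands TNFSF15, TNFSF10 and TNFSF9 and the receptors TNFRSF1A, TNFRSF1B, TNFRSF10A, TNFRSF10B, TNFRSF10D, FAS and TNFRSF21. All 10 were found among the 17013 genes of the mRNA-seq table by their Ensembl identifiers, and each had at least 43.2 normalized reads in every library. RNA was measured in HCC1806, an established triple-negative breast cancer cell line, to ask how loss of the kinase MLK4 changes the response of these cells to chemotherapy. Cells were transfected with siNT, a non-targeting control siRNA, or with siMLK4, a pool of 4 siRNAs against MLK4 (gene symbol MAP3K21). They then received 1 μM doxorubicin for 24 h, a topoisomerase poison that breaks DNA, or vehicle. The vehicle libraries are labelled DMSO, and the study elsewhere describes DMSO and doxorubicin alike as given for 24 h, whereas the sample titles give the start of treatment and the methods call these cells untreated. A part of time in culture in the doxorubicin comparisons was not tested. The 4 groups, siNT vehicle, siNT doxorubicin, siMLK4 vehicle and siMLK4 doxorubicin, had 3 libraries each. The descriptions of siMLK4 doxorubicin replicates 2 and 3 end in the same library tag, although their titles and values differ. There were 16759025 to 19302248 reads per library assigned to the genes of the table. The model was a single cell line transfected transiently in triplicate, so p-values measure the spread between transfected cultures, and the siRNAs were used as a pool and not singly. All 8 epithelial markers examined were present, led by KRT5 and EPCAM, and their summed level with vehicle was 70769 to 76202 normalized reads per library in siNT and 65901 to 70936 in siMLK4 cells. With doxorubicin the sum was 39179 to 43787 in siNT and 27893 to 31509.8 in siMLK4 cells, with no overlap. Single markers differed from the sum. In vehicle, siMLK4 gave limma log2 fold changes of −1.05 for KRT14, −1.19 for KRT6A, −0.66 for KRT17 and −0.62 for EPCAM, but 0.64 for KRT5 and 0.38 for CDH1. Doxorubicin in siNT cells gave −1.24 to −1.6 for KRT5, KRT14, KRT6A, TP63 and EGFR, beside −0.01 for KRT17 and −0.04 for EPCAM. Of 5 haematopoietic markers, PTPRC and CD14 were measured, with CD14 at 10.6 to 43.4 normalized reads and a sum of 12.9 to 36.8 with vehicle and 38.7 to 64.2 with doxorubicin, and CD3E and LYZ are among those not analysed here. Of 5 stromal markers, COL1A1, PDGFRB and VWF were measured, led by COL1A1 at 254 to 577 normalized reads, and their sum was 289 to 362 in siNT libraries and 384 to 659 in siMLK4 libraries. The part of these shifts in the results was not tested. The progesterone receptor gene PGR was at 0 in all 6 vehicle libraries and at 7.26 to 18.5 normalized reads in the 6 doxorubicin libraries, the oestrogen receptor gene ESR1 stood at 36.0 to 148 normalized reads, and ERBB2 at 1272 to 2027. Every gene of the table had a group mean of at least 10.67 normalized reads. PTPRC and PGR reached this with doxorubicin and not with vehicle, so they could enter the table only where they were higher.

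TNF superfamily ligands are trimeric proteins that signal through receptors on the same or neighbouring cells. Receptors with an intracellular death domain, such as FAS and the receptors of the ligand TRAIL, can recruit FADD and caspase-8 and start apoptosis, while TNFRSF1A, TNFRSF1B and many others recruit TRAF adaptor proteins and switch on NF-κB and JNK. Decoy receptors bind a ligand without passing on a death signal. In epithelial tumors the balance of ligand, death receptor and decoy has been proposed as a determinant of the response to TRAIL.

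Levels are given as normalized reads, which are whole reads divided by the size factor of the library. Differences are log2 fold changes on the variance-stabilized scale of the table, where folds of genes with few reads are smaller than in the reads. They were tested with limma over all 17013 genes, and calls required an adjusted p below 0.01 together with a log2 fold change beyond 0.75 in either direction. Because RNA was taken from whole cultures, fewer cells that express a gene and less RNA per cell cannot be told apart. With doxorubicin in siNT cells, 4 of the 10 members were called higher (TNFSF15, TNFSF9, TNFRSF1B and TNFRSF10D) and 0 lower, while 12.1% of all genes were called higher and 10.6% lower. With doxorubicin in siMLK4 cells, these 4 and TNFRSF10A were called higher and TNFSF10 lower, against 12.6% and 10.6% of all genes. Comparing siMLK4 with siNT in vehicle, TNFSF10 was called higher and TNFRSF10A lower, against 2.51% and 3.14% of all genes. With doxorubicin, TNFSF15 was called lower in siMLK4 than in siNT cells and no member higher, against 2.93% and 2.66% of all genes. Over the 10 members the median log2 fold change was 0.43 and 0.58 for doxorubicin in siNT and siMLK4 cells and −0.22 and −0.35 for siMLK4 in vehicle and doxorubicin, beside 0.005, 0.018, 0.012 and 0.023 over all genes. The doxorubicin comparison in siNT cells and the siMLK4 comparison with doxorubicin share the siNT doxorubicin libraries, and each other pair of comparisons that meets in a group shares that group's libraries in the same way.

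**Figure D1:**
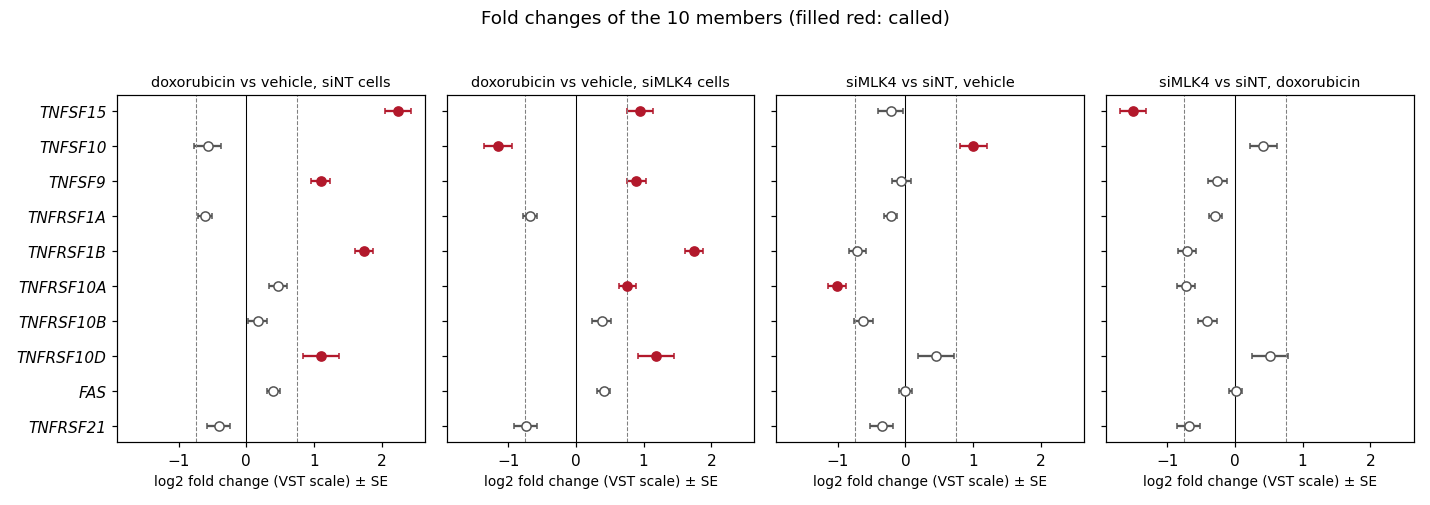
Log2 fold change on the variance-stabilized scale (x axis, bars are SE) of the 10 members (y axis) in 4 comparisons, with called members filled in red and dashed lines at −0.75 and 0.75. TNFSF15 lies at 2.24 for doxorubicin in siNT cells and at −1.51 for siMLK4 against siNT with doxorubicin, and TNFRSF1B and TNFRSF21 lie just inside the fold limit in comparisons where they were not called.

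The target of the siRNAs was measured first. MAP3K21 (chr1:233327724-233385148 in GRCh38, plus strand) stood at 553, 669.6 and 674 normalized reads with siNT and vehicle and at 103, 94.7 and 88.7 with siMLK4 and vehicle. With doxorubicin it stood at 758, 856 and 772 in siNT and at 113, 138 and 94.4 in siMLK4 libraries. The siMLK4 libraries lay below all siNT libraries, at 15.1% (vehicle) and 14.5% (doxorubicin) of the siNT level (log2 fold change −2.24 and −2.37, both SE 0.12, limma adjusted p = 9.7e-08 and 1.1e-07). The 4 guide strands are shown because their seeds, bases 2 to 8 in capitals, can also pair with transcripts other than MAP3K21. They are the complement of the sense strands that the study lists, without the overhang.
siMLK4 1: uCUCUCUGagcaucuuucc
siMLK4 2: uUUACCUUgggcuucuccu
siMLK4 3: aUUCCCUCucguuucuucu
siMLK4 4: uUUCUUUGcaaucuguucu
Each guide matched MAP3K21 in full at a single place before its 3′UTR, in GRCh38 at chr1:233379030-233379048, chr1:233362204-233362222, chr1:233379276-233379294 and chr1:233376047-233376065. A match to the seed alone was found in 17.6%, 11.4%, 17.3% and 20.4% of 13583 annotated 3′UTRs for siMLK4 1 to 4. Of the 10 members, 3 held such a match in the 3′UTR, namely TNFSF15, TNFRSF10D and TNFRSF21, while 44.3% of all 3′UTRs did.

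TNFSF15, which encodes the ligand TL1A, had the largest fold change among the members. The gene lies at chr9:114784652-114806039 on the minus strand. Its level was 98.6, 58.1 and 127 normalized reads in siNT vehicle libraries and 508, 655 and 678 in siNT doxorubicin libraries. In siMLK4 cells it was 86.2, 66.8 and 64.9 with vehicle and 155, 154 and 245 with doxorubicin. The siNT doxorubicin libraries lay far above all others, the siMLK4 doxorubicin libraries lay between them and vehicle, and the vehicle groups overlapped. Doxorubicin raised the mean 6.49-fold in siNT cells (log2 fold change 2.24, SE 0.19, limma adjusted p = 5.6e-07) and 2.55-fold in siMLK4 cells (0.95, SE 0.19, adjusted p = 0.00076). With doxorubicin, siMLK4 cells held 30.1% of the siNT level (−1.51, SE 0.19, limma adjusted p = 9.3e-05), whereas with vehicle the difference was −0.22 (SE 0.19, limma adjusted p = 0.44). These 3 calls held when any 1 of the 12 libraries was left out. The difference between the doxorubicin responses in siMLK4 and siNT cells, the interaction, was −1.29 (SE 0.27, limma adjusted p = 0.034), which did not meet the threshold of 0.01. It ranged from −1.47 to −1.08 with 1 library left out, with an adjusted p of 0.015 to 0.12 that was under 0.05 in 4 of the 12 fits. By limma-voom on the reads it was −1.45 (adjusted p = 0.092). Over all genes, 0.0999% were called higher and 0.176% lower in the interaction, and none of the 10 members was called. TNFSF15 alone had an unadjusted p under 0.05, and limma-voom called none of them either.

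The 3′UTR of TNFSF15 is 5800 bases long and held 4 seed matches. These matches are shown because, among the members, TNFSF15 had the largest difference between the siRNA groups, which was with doxorubicin. They are given 5′ to 3′ on the minus strand in GRCh38, with the match in capitals.
TNFSF15 site 1 (siMLK4 1, chr9:114788561-114788583): tatagaggCAGAGAGgcatttga
TNFSF15 site 2 (siMLK4 1, chr9:114785371-114785393): catttgtcCAGAGAGtgtccaac
TNFSF15 site 3 (siMLK4 2, chr9:114787191-114787213): aaatcaagAAGGTAAaaaagttc
TNFSF15 site 4 (siMLK4 2, chr9:114784798-114784820): tcaaccgcAAGGTAAaatgcata
A total of 4 or more matches to the pool was found in 5.0% of all 3′UTRs and in 40.7% of the 1093 that are at least 5000 bases long. Whether these letters are bound by an siRNA was not tested.

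**Figure D2:**
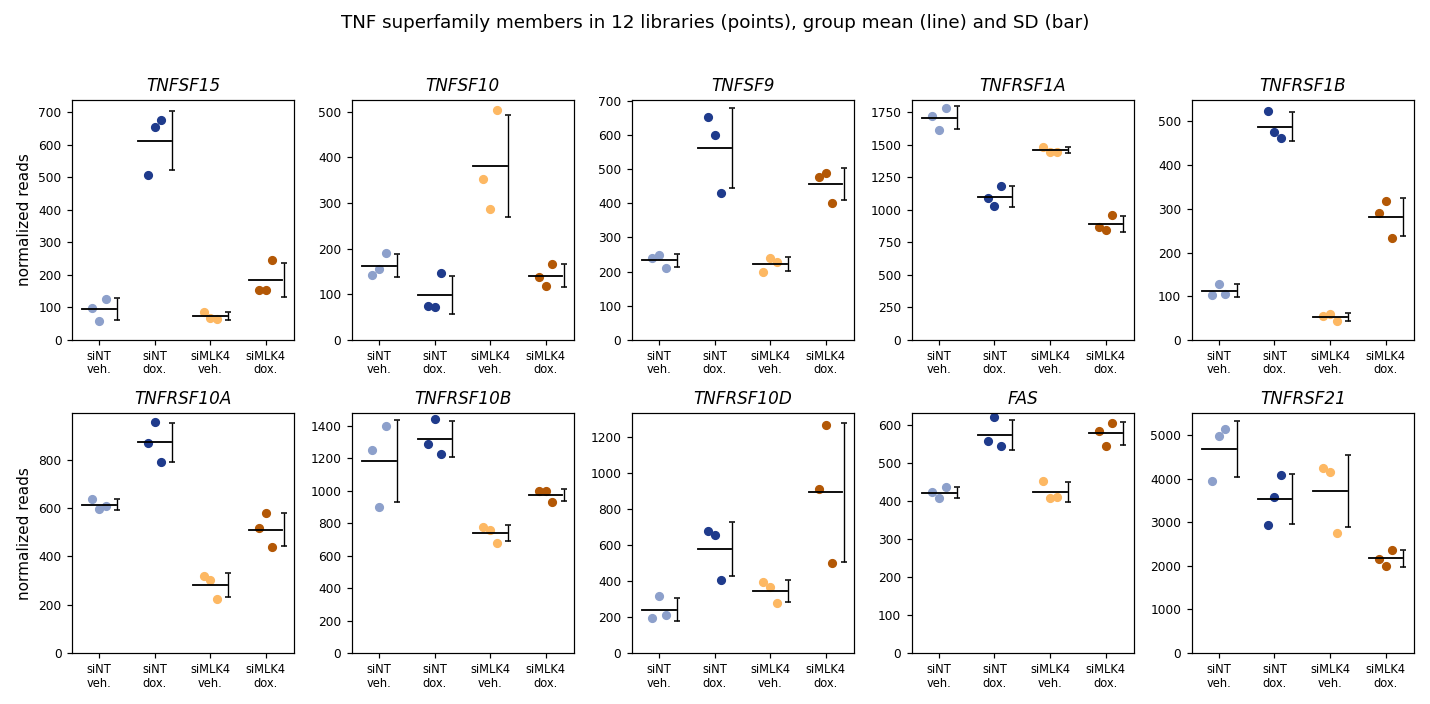
Normalized reads (linear y axis from 0) of each of the 10 members in the 12 libraries (points), by group, with the group mean (line) and SD (bar). TNFSF15 is at 508 or more in the 3 siNT doxorubicin libraries and at most 245 elsewhere, TNFSF10 is highest with siMLK4 and vehicle, and FAS differs between treatments and not visibly between siRNAs.

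Of the other ligands, TNFSF10 was called lower with doxorubicin in siMLK4 cells, and TNFSF9 was called higher in both siRNA groups. TNFSF10 encodes TRAIL, the ligand that triggers apoptosis through TNFRSF10A and TNFRSF10B, and lies at chr3:172505508-172523475 on the minus strand. Its level was 142, 155 and 191 normalized reads in siNT vehicle libraries and 352, 287 and 503 in siMLK4 vehicle libraries. With doxorubicin it was 74.7, 72.3 and 146 in siNT and 137, 119 and 167 in siMLK4 libraries. All siMLK4 vehicle libraries were above every other library, and the siRNA groups overlapped with doxorubicin. Between equally numbered doxorubicin libraries, the siMLK4 library was the higher each time. The siMLK4 difference with doxorubicin was 0.42 (SE 0.2, limma adjusted p = 0.15, or 0.031 with replicate number as a block), not called in either fit. In vehicle the mean was 2.34-fold higher in siMLK4 cells (log2 fold change 1.0, SE 0.2, limma adjusted p = 0.0028). This call was lost without siNT vehicle replicate 1 or 2 or siMLK4 vehicle replicate 3 (adjusted p = 0.011 to 0.012, fold change 0.8 to 0.97) and in a fit of these 2 groups alone (adjusted p = 0.016). Doxorubicin lowered TNFSF10 in siMLK4 cells to 37.1% (−1.15, SE 0.2, limma adjusted p = 0.00026). In siNT cells the difference was −0.57 (limma adjusted p = 0.027, or 0.0022 with replicate number as a block), not called in either fit. Without siNT doxorubicin replicate 3, the library at 146, it was −0.8 (adjusted p = 0.0032) and called. The interaction was −0.58 (SE 0.29, limma adjusted p = 0.38), so the responses in siNT and siMLK4 cells were not shown to differ.

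TNFSF9 encodes the ligand of the T-cell costimulatory receptor TNFRSF9 and lies at chr19:6531026-6535924 on the plus strand. Its level was 241, 247 and 209.9 normalized reads in siNT vehicle libraries and 653, 601 and 429.9 in siNT doxorubicin libraries. The siMLK4 libraries held 198, 239 and 228 with vehicle and 477, 488 and 402 with doxorubicin. Every doxorubicin library was above every vehicle library, and the siRNA groups overlapped within each treatment. The rise was 2.41-fold in siNT cells (log2 fold change 1.1, SE 0.14, limma adjusted p = 1.8e-05) and 2.05-fold in siMLK4 cells (0.89, SE 0.14, adjusted p = 0.0001). Between siRNA groups the difference was −0.06 in vehicle and −0.26 with doxorubicin (both SE 0.14, limma adjusted p = 0.81 and 0.2).

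Of the receptors of TNF, TNFRSF1B rose with doxorubicin and TNFRSF1A was lower by less than the fold limit. TNFRSF1B, which lacks a death domain and signals through TRAF2, lies at chr1:12166991-12209228 on the plus strand. Its level was 103, 129 and 106 normalized reads in siNT vehicle libraries and 525, 476 and 463 in siNT doxorubicin libraries. The siMLK4 libraries held 55.1, 59.8 and 43.2 with vehicle and 290.0, 319 and 234 with doxorubicin. None of the 4 groups overlapped. The rise with doxorubicin was 4.34-fold in siNT and 5.33-fold in siMLK4 cells, and the log2 fold change was 1.74 in each (SE 0.13, limma adjusted p = 1.4e-07 and 1.5e-07). The siMLK4 level was 46.8% of the siNT level in vehicle and 57.6% with doxorubicin, with a log2 fold change of −0.71 in each (SE 0.13, limma adjusted p = 0.0011), just short of the fold limit. On the reads, limma-voom gave −1.09 in vehicle and −0.8 with doxorubicin (adjusted p = 0.002 and 0.0008), both called. Leaving out siMLK4 vehicle replicate 2 (−0.76) or siMLK4 doxorubicin replicate 2 (−0.79) also gave a call in the respective comparison.

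TNFRSF1A, the widely expressed TNF receptor with a death domain, lies at chr12:6328757-6342114 on the minus strand. Its level was 1725, 1612 and 1787 normalized reads in siNT vehicle libraries and 1089, 1029 and 1187 in siNT doxorubicin libraries. In siMLK4 cells it was 1485, 1447 and 1445 with vehicle and 871, 845 and 964 with doxorubicin. The 4 groups did not overlap, and siMLK4 libraries were lower within each treatment. Doxorubicin gave a log2 fold change of −0.61 in siNT and −0.68 in siMLK4 cells (both SE 0.1, limma adjusted p = 0.0001 and 4e-05), and siMLK4 gave −0.22 in vehicle and −0.29 with doxorubicin (adjusted p = 0.11 and 0.041). All were under the fold limit and not called. TNF, the ligand of both receptors, was itself at 2.08 to 24.6 normalized reads and was not called in any comparison. Its mean was 2.21-fold higher with doxorubicin in siNT and 2.06-fold in siMLK4 cells (log2 fold change 0.35 and 0.36, limma adjusted p = 0.047 and 0.041). The TNF means were 6.46 and 9.93 with vehicle and 14.3 and 20.4 with doxorubicin. Only the latter reached 10.67, so TNF could enter the table only where it was higher.

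The 3 TRAIL receptors among the members lie close together on the minus strand of chromosome 8, with TNFRSF10B at chr8:23020133-23069031, TNFRSF10D at chr8:23135588-23164027 and TNFRSF10A at chr8:23190452-23225102. TNFRSF10A and TNFRSF10B carry a death domain, and TNFRSF10D is a decoy whose death domain is truncated. Between 0.6% and 1.3% of the 50-base stretches in their transcripts also occur in transcripts of other genes, so few reads could be shared. TNFRSF10A stood at 638, 594 and 608 normalized reads in siNT vehicle libraries and at 319, 302 and 224 in siMLK4 vehicle libraries. With doxorubicin it stood at 867, 955 and 791 in siNT and at 516, 577 and 438 in siMLK4 libraries. The 4 groups did not overlap, with siMLK4 vehicle lowest and siNT doxorubicin highest. In vehicle the siMLK4 level was 45.9% of siNT (log2 fold change −1.01, SE 0.13, limma adjusted p = 9.1e-05), a call that held with any 1 library left out. With doxorubicin the difference was −0.72 (SE 0.13, limma adjusted p = 0.0013), not called, while limma-voom gave −0.77 and a call. A call was also made without siNT doxorubicin replicate 3 (−0.78) or siMLK4 doxorubicin replicate 2 (−0.8). Doxorubicin raised TNFRSF10A in siMLK4 cells by 0.76 (SE 0.13, limma adjusted p = 0.00022), which fell under the fold limit without siMLK4 vehicle replicate 3 (0.63) or siMLK4 doxorubicin replicate 2 (0.68). In siNT cells the difference was 0.47 (adjusted p = 0.0073), not called.

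TNFRSF10B stood at 1253, 903 and 1397 normalized reads in siNT vehicle libraries and at 777, 758 and 681 in siMLK4 vehicle libraries. With doxorubicin it stood at 1289, 1440.4 and 1227 in siNT and at 998, 998 and 934 in siMLK4 libraries. Within each treatment all siMLK4 libraries were below all siNT libraries, while vehicle and doxorubicin overlapped in siNT cells. The siMLK4 difference was −0.62 in vehicle (SE 0.14, limma adjusted p = 0.0041) and −0.41 with doxorubicin (SE 0.14, adjusted p = 0.039), neither called. Without siNT vehicle replicate 2, the library at 903, the difference in vehicle was −0.8 (adjusted p = 0.0005) and called. The doxorubicin difference was 0.17 in siNT and 0.38 in siMLK4 cells (limma adjusted p = 0.31 and 0.027), not called, and without siNT vehicle replicate 2 the first was −0.007.

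The decoy TNFRSF10D stood at 196, 315 and 212 normalized reads in siNT vehicle libraries and at 678, 654 and 407 in siNT doxorubicin libraries. In siMLK4 cells it stood at 393, 366 and 276 with vehicle and at 913, 1269 and 499 with doxorubicin. The doxorubicin libraries were above the vehicle libraries of the same siRNA, and the siRNA groups overlapped. The rise was 2.4-fold in siNT cells (log2 fold change 1.1, SE 0.27, limma adjusted p = 0.0031) and 2.59-fold in siMLK4 cells (1.18, SE 0.27, adjusted p = 0.0019). The call in siNT cells was lost when any 1 of siNT doxorubicin replicates 1 and 2 and siNT vehicle replicates 1 and 3 was left out (adjusted p = 0.012 to 0.017), and that in siMLK4 cells without siMLK4 doxorubicin replicate 2 (0.89, adjusted p = 0.012). Between siRNA groups the difference was 0.45 in vehicle and 0.52 with doxorubicin (both SE 0.27, limma adjusted p = 0.24 and 0.18), not called, in the direction opposite to both death receptors. Its share of the reads per kb of transcript of these 3 receptors, which leaves out the other TRAIL decoys TNFRSF10C and TNFRSF11B, was 11.7% ± 4.22 in siNT vehicle, 19.8% ± 3.45 in siNT doxorubicin, 25.1% ± 1.4 in siMLK4 vehicle and 35.6% ± 8.78 in siMLK4 doxorubicin libraries (SD, n = 3). This share was chosen after the values were seen and is given as a description without a test. Within each treatment, every siMLK4 library had a larger share than every siNT library.

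**Figure D3:**
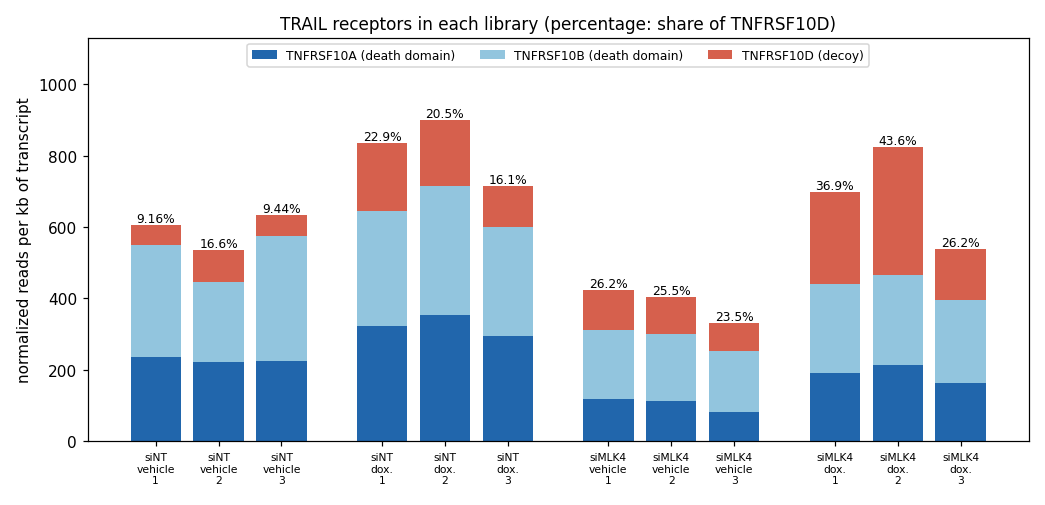
Normalized reads per kb of transcript (linear y axis from 0) of the 3 TRAIL receptors, stacked, in each of the 12 libraries, with the percentage of TNFRSF10D above each bar. The share is 9.16 to 16.6% in siNT vehicle and 23.5 to 26.2% in siMLK4 vehicle libraries, and 16.1 to 22.9% and 26.2 to 43.6% with doxorubicin.

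FAS and TNFRSF21 carry death domains too. FAS, the receptor of FAS ligand, lies at chr10:88953813-89029605 on the plus strand. Its level was 423, 406 and 436 normalized reads in siNT vehicle libraries and 556, 619 and 545 in siNT doxorubicin libraries. The siMLK4 libraries held 452, 407 and 409 with vehicle and 584, 543 and 604 with doxorubicin. Doxorubicin libraries were above all vehicle libraries, and the siRNA groups overlapped. The difference with doxorubicin was 0.4 in siNT and 0.41 in siMLK4 cells (both SE 0.1, limma adjusted p = 0.0029 and 0.0025), under the fold limit and not called. Between siRNA groups it was 0.0 in vehicle and 0.01 with doxorubicin (both SE 0.1, limma adjusted p = 0.99 and 0.96).

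TNFRSF21, also called death receptor 6, lies at chr6:47231532-47309905 on the minus strand. Its level was 3954, 4974 and 5147 normalized reads in siNT vehicle libraries and 2934, 3573 and 4093 in siNT doxorubicin libraries. In siMLK4 cells it was 4238, 4151 and 2765 with vehicle and 2149.6, 1989.6 and 2375 with doxorubicin. The siMLK4 doxorubicin libraries were below all others, and the other 3 groups overlapped in part. In siMLK4 cells the doxorubicin difference was −0.74 (SE 0.17, limma adjusted p = 0.0019), at the edge of the fold limit and not called. It was −0.75 and called by limma-voom, and called without siMLK4 vehicle replicate 3 (−0.94) or siMLK4 doxorubicin replicate 3 (−0.8). In siNT cells it was −0.41 (adjusted p = 0.052). The siMLK4 difference was −0.35 in vehicle (SE 0.17, limma adjusted p = 0.15) and −0.68 with doxorubicin (adjusted p = 0.0095), not called, and the latter was −0.81 and called without siNT doxorubicin replicate 1.

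The order of the levels differed between groups. In siNT vehicle cells TNFRSF21 was highest at 1305 ± 179 normalized reads per kb of transcript (SD, n = 3), followed by TNFRSF1A at 787 ± 40.8, TNFRSF10B at 296 ± 63.5 and TNFRSF10A at 228 ± 8.28. TNFSF9 at 142 ± 12.2, FAS at 114 ± 4.02, TNFSF10 at 86.6 ± 13.5, TNFRSF10D at 68.2 ± 18.2, TNFRSF1B at 30.5 ± 3.82 and TNFSF15 at 14.4 ± 5.25 reads per kb came next. Neighbours in this order did not overlap between libraries except TNFRSF10B with TNFRSF10A and TNFSF10 with TNFRSF10D. TNFRSF21 and TNFRSF1A were the highest in all 4 groups. In siMLK4 vehicle cells TNFSF10 came next to these at 203 ± 59.0 reads per kb, overlapping TNFRSF10B at 185 ± 12.8. In siNT doxorubicin cells TNFSF10 was last at 52.1 ± 22.3, overlapping TNFSF15 at 93.2 ± 14.0.

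**Figure D4:**
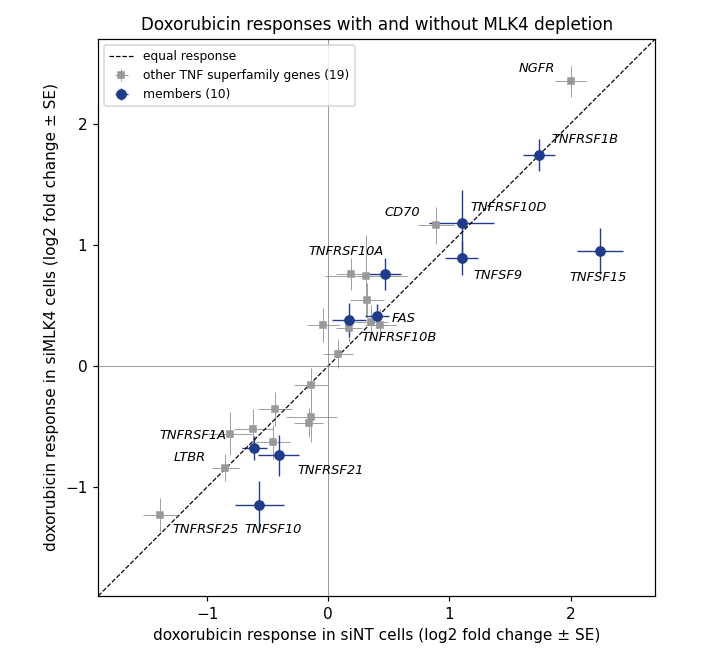
Log2 fold change with doxorubicin in siNT cells (x axis) against siMLK4 cells (y axis) on the variance-stabilized scale, bars are SE, for the 10 members and 19 other genes of the superfamily, with the line of equal response. TNFSF15 lies below the line at 2.24 and 0.95, and TNFRSF1B lies on it at 1.74 in each.

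Among 37 other genes of the superfamily, 19 were measured, and FASLG, CD27, TNFRSF6B and TNFRSF10C are among those not analysed here. With doxorubicin in siNT cells 2 were called higher and 3 lower, and in siMLK4 cells 3 higher and 2 lower, while 12.1% and 10.6% of all genes were called higher and lower in siNT and 12.6% and 10.6% in siMLK4 cells. NGFR, the low-affinity neurotrophin receptor, stood at 59.9, 61.3 and 52.8 normalized reads in siNT vehicle and 393, 377 and 337 in siNT doxorubicin libraries, and rose by 2.0 in siNT and 2.35 in siMLK4 cells on the log2 scale (both SE 0.13, limma adjusted p = 6e-08 and 2.8e-08). CD70, the ligand of CD27, rose by 0.89 and 1.16 (both SE 0.15, limma adjusted p = 0.00021 and 2.1e-05) from 3.01 to 14.1 normalized reads with vehicle to 29.5 to 62.7 with doxorubicin. No gene of the table had all its group means below 10.67 normalized reads. CD70 reached this with doxorubicin and not with vehicle (means 6.01 and 8.01), so it could enter the table only where it was higher. TNFRSF25, the receptor of TNFSF15, stood at 166, 175 and 103 normalized reads in siNT vehicle and at 34.1, 28.5 and 28.4 in siNT doxorubicin libraries. It fell in siNT cells (log2 fold change −1.39, SE 0.14, limma adjusted p = 2.4e-06) and in siMLK4 cells (−1.23, SE 0.14, adjusted p = 6.9e-06). LTBR, the lymphotoxin β receptor, fell by 0.85 and 0.84 in siNT and siMLK4 cells (both SE 0.11, limma adjusted p = 1.8e-05 and 2.1e-05), and TNFRSF12A, the TWEAK receptor, by 0.81 in siNT cells (SE 0.18, adjusted p = 0.0013) and with a difference of −0.56 in siMLK4 cells that was not called (adjusted p = 0.014). The call of TNFRSF12A was lost on leaving out siNT doxorubicin replicate 2 (−0.64) or siNT vehicle replicate 3 (−0.75). TNFRSF19 likewise reached that level in siMLK4 doxorubicin libraries alone (mean 12.2), so its call as higher there is tied to its presence in the table. Each siMLK4 vehicle library had at most 3 reads, so that it was at least 3.98-fold higher against that floor, taken per library. This call was lost without siMLK4 vehicle replicate 2 (0.66) or siMLK4 doxorubicin replicate 1 (0.74) or 2 (0.69).

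Between siRNA groups, 2 of these 19 genes were called in vehicle and 1 with doxorubicin, all lower in siMLK4 cells. Of all genes, 3.14% were called lower and 2.51% higher in vehicle, and 2.93% and 2.66% with doxorubicin. TNFRSF8, the receptor CD30, fell in vehicle from 257, 324 and 209 normalized reads to 102, 168 and 68.1 (log2 fold change −0.99, SE 0.21, limma adjusted p = 0.0031) and with doxorubicin by 1.27 (SE 0.21, adjusted p = 0.00057). The call in vehicle was lost without siNT vehicle replicate 2 or siMLK4 vehicle replicate 1 or 3 (adjusted p = 0.01 to 0.018) and in a fit of the 2 groups alone (0.034). TNFSF18, the ligand of the costimulatory receptor TNFRSF18, stood at 207, 36.3 and 240.2 normalized reads in siNT vehicle and at 14.9 to 22.7 in siMLK4 vehicle libraries, so that siNT vehicle replicate 2 was far below the other siNT vehicle libraries. Its difference was −1.63 (SE 0.34, limma adjusted p = 0.0031), and the call was lost without siNT vehicle replicate 1 or 3 or siMLK4 vehicle replicate 2 (adjusted p = 0.013 to 0.014), by limma-voom (0.016) and in a fit of the 2 groups alone (0.045). None of the 19 genes was called in the interaction, where 1 had an unadjusted p under 0.05, and limma-voom called none.

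All 41 genes of a list linked to signalling by these receptors, which includes ADAM10, ADAM17 and SPPL2A, were in the table. With doxorubicin 6 were called in siNT cells, 3 higher and 3 lower, and 5 in siMLK4 cells, 2 higher and 3 lower, beside 12.1% of all genes higher and 10.6% lower in siNT and 12.6% and 10.6% in siMLK4 cells. Its median log2 fold change was 0.04 and 0.0, beside 0.005 and 0.018 over all genes. CYLD, a deubiquitinase that limits NF-κB and JNK signalling, was highest among the called genes, with a rise of 1.56 in siNT and 2.02 in siMLK4 cells (both SE 0.2, limma adjusted p = 1.5e-05 and 1.7e-06) from 389 to 498 normalized reads in siNT vehicle to 1061 to 1721 in siNT doxorubicin libraries. RIPK1, the kinase at the TNFRSF1A complex, rose by 0.97 in siNT cells (SE 0.13, limma adjusted p = 2.2e-05). In siMLK4 cells the difference was 0.56, not called, and the interaction was −0.4 (limma adjusted p = 0.31). MAP2K7, a kinase that activates JNK, fell by 1.16 in siNT and 1.33 in siMLK4 cells (both SE 0.14, limma adjusted p = 1.4e-05 and 4.4e-06). Of the adaptors, TRAF5 fell by 0.89 and 1.33 (both SE 0.15, limma adjusted p = 0.00015 and 4.8e-06). TRAF2 fell by 0.81 in siNT cells (SE 0.15, adjusted p = 0.00031) with −0.05 in siMLK4 cells, and TRAF1 rose by 0.93 in siMLK4 cells (SE 0.16, adjusted p = 0.00019) with 0.38 in siNT cells. The call of TRAF2 was lost on leaving out siNT doxorubicin replicate 3 (−0.7) or siNT vehicle replicate 1 (−0.67). The interaction of TRAF2 was 0.76 and that of TRAF1 0.55 (limma adjusted p = 0.088 and 0.26), so neither response was shown to differ between siRNA groups.

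TNFAIP3, which encodes the NF-κB inhibitor A20, was the only gene of the signalling list called in siMLK4 cells under both treatments. It stood at 944, 1014 and 1210.2 normalized reads in siNT vehicle and at 484, 645 and 383 in siMLK4 vehicle libraries, and at 794, 1123 and 1038 in siNT and 487, 505 and 511 in siMLK4 libraries with doxorubicin. The siMLK4 libraries were below all siNT libraries within each treatment, with log2 fold changes of −1.02 and −0.89 (both SE 0.16, limma adjusted p = 0.00053 and 0.0014). In a fit of the vehicle groups alone the first call was lost (adjusted p = 0.014). RIPK3, the kinase of necroptosis, was low, at 8.98 to 12.9 normalized reads in siNT vehicle and 38.1 to 57.8 in siMLK4 vehicle libraries. It was higher in siMLK4 cells in vehicle (0.84, SE 0.13, limma adjusted p = 0.00044, but 0.74 and not called without siMLK4 vehicle replicate 2). With doxorubicin in siMLK4 cells it fell by 1.0 (SE 0.13, limma adjusted p = 2.2e-05), to 5.94, 4.17 and 14.5 normalized reads. On the reads this was 17.8% of the vehicle mean, and −2.61 by limma-voom. None of the 41 genes was called in the interaction, where 8 had an unadjusted p under 0.05, and limma-voom called none.

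The genes whose pattern over the 12 libraries was most like that of TNFSF15, among 11056 genes with a mean of at least 100 normalized reads, were MYPN (Pearson r = 0.976), AGTPBP1 (0.964), STEAP4 (0.964), ELOVL4 (0.963) and IL6 (0.962). These coefficients are given as a description, since all genes share the same libraries and groups. The 300 bases around the start of the representative (MANE) transcript of each of 13500 genes, 250 before and 50 after, which can lie inside the gene span given above as for FAS, were searched on both strands for the letters GGANTTTCC, an NF-κB-like motif, and TGANTCA, letters that include the usual AP-1 site but are wider than it. The first was in 1.61% and the second in 4.28% of all windows. None of the 10 members held the first in its window, and FAS alone held the second, as TGAATCA, which is not the usual AP-1 site. A window without a match says only that these letters are not in it.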

How the data were processed

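HCC1806 cells from 4 groups of 3 libraries were compared, grouped by the siRNA and treatment in the labels. The authors selected poly(A) RNA, used Trimmomatic 0.39 for trimming and HISAT2 for mapping, counted reads strand-specifically with HTSeq 0.6.0 and used DESeq2 1.26.0. Their methods name GRCh38 and the submitters' processing notes hg19. Coordinates here come from GENCODE release 44 on GRCh38. The deposited values are log2 values after a variance-stabilizing transformation, which was read from the values themselves. Inverting it returned whole reads, within 0.05, for 100.0% of values, and size factors of 0.852 to 1.199. The table was already filtered on low genes. Limma 3.58.1 in R 4.3.3 (lmFit, eBayes with a variance trend) was fitted to the deposited values of all 12 libraries as 4 group means, with Benjamini-Hochberg adjustment, and was tested on simulated data. The planned edgeR test applied to counts and was not used. Equally numbered libraries deviated together in doxorubicin against vehicle in siNT cells (correlations 0.46, 0.11 and 0.2) and in siMLK4 against siNT with doxorubicin (0.19, 0.52 and 0.56). This pairing was read from the values. The correlations were mixed in sign for doxorubicin in siMLK4 cells (−0.08, 0.18 and 0.34) and for siMLK4 against siNT in vehicle (−0.72, 0.32 and −0.52). All members, the genes called in the family and signalling lists and MAP3K21 were named. A called gene of the signalling list is counted but not reported here. The members and lists were chosen with earlier results of these data known. The siRNA sequences come from the study's supplement. Floors of 3 reads cover counting error only. Alternatives were TMM scaling, a filter of 10 reads in every library, limma-voom, log2(normalized reads + 1), no variance trend, only the groups compared, the replicate block, an adjusted p under 0.05 without a fold limit, and leaving out each library.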

Additional observations from a re-analysis of the deposited data

Results flagged for a closer look

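Of the 10 members, TNFSF15 alone passed an adjusted p of 0.05 for the difference between the doxorubicin responses of siNT and siMLK4 cells. The members were chosen with earlier results of these data known, and 204 of the 17013 genes passed that threshold. The epithelial marker KRT5 was among these genes (interaction −0.96, limma adjusted p = 0.047). For TNFSF15 the interaction was −1.29 on the log2 scale (SE 0.27, limma adjusted p = 0.034), with a response of 2.24 in siNT and 0.95 in siMLK4 cells. The adjusted p passed a threshold of 0.05 and not the 0.01 used for calls, was 0.092 by limma-voom, and was under 0.05 in 4 of the 12 fits with 1 library left out (0.015 to 0.12), so the responses were not shown to differ at 0.01. All 3 siNT doxorubicin libraries were above all 3 siMLK4 doxorubicin libraries. Groups of 3 are too small for the test of single outlying libraries.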

How the results depend on the processing

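Without the fold limit and at an adjusted p under 0.05, 9745 and 9858 genes were called for doxorubicin in siNT and siMLK4 cells (main 3859 and 3949), 4381 and 4219 for siMLK4 in vehicle and with doxorubicin (961 and 950) and 204 in the interaction (47). The members called were then 8, 10, 4, 6 and 1 (main 4, 6, 2, 1 and 0), the other family genes 10, 15, 6 and 6 before the interaction, and the signalling genes 18, 19, 7 and 9. The cause of the other shifts was not tested, apart from the compression of low genes that the transformed scale brings by its construction. On the reads, limma-voom called 1483 and 1466 genes for siMLK4 in vehicle and with doxorubicin and 29 in the interaction, 3 members with doxorubicin, and 1 and 2 other family genes in vehicle and with doxorubicin. On log2(normalized reads + 1), 1613 genes were called in vehicle, 3 members and 2 other family genes for siMLK4 with doxorubicin, and 8 other family genes for doxorubicin in siNT cells. With only the groups compared, 611 genes, 1 member, 0 other family genes and 1 signalling gene were called in vehicle, and 2 other family genes with doxorubicin. With at least 10 reads in every library, 3 other family genes were called for doxorubicin in siMLK4 cells and 1 signalling gene for siMLK4 in vehicle. Of the 13295 genes left by that filter, doxorubicin gave 1253 higher and 1679 lower in siNT cells (main 2060 and 1799 of 17013). In siMLK4 cells it gave 1290 higher and 1620 lower (main 2147 and 1802), so the balance of all genes depends on the filter. With 1 library left out, the members called ranged from 3 to 5 and 4 to 7 for doxorubicin in siNT and siMLK4 cells and from 1 to 3 in each siMLK4 comparison. The other family genes ranged from 1 to 2 in each siMLK4 comparison and the signalling genes from 1 to 2 in vehicle, and the interaction from 0 to 37 over all genes, with 0 without siMLK4 doxorubicin replicate 1 and 6 to 37 in the other fits. The replicate block gave 3854, 3937, 951, 945 and 40 calls over all genes and changed no call of a member. Differences near 0 changed sign and stayed uncalled. The interaction of TNFRSF1B was 0.024 with TMM scaling, 0.29 by limma-voom, 0.28 on log2(normalized reads + 1) and −0.084 to 0.11 with 1 library left out. FAS for siMLK4 in vehicle was −0.005 with TMM scaling and −0.042 to 0.026 with 1 library left out, −0.022 to 0.061 with doxorubicin and −0.024 to 0.059 in the interaction. TNFRSF10D in the interaction ranged from −0.21 to 0.42, TNFSF9 for siMLK4 in vehicle from −0.12 to 0.008, and TNFRSF10B for doxorubicin in siNT cells from −0.007 to 0.29. Of the comparisons of single genes with all other settings, 584 kept direction and call, 24 gained a call, 5 lost it and 4 reversed, and with 1 library left out 891, 9, 24 and 24 did.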
